A study of Mus musculus with 7 samples.

Results

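AP-1 and EGR proteins are transcription factors made within minutes of a stimulus, and 10 of their genes were examined in dendritic cells grown from Gata2-targeted and control mouse progenitors. The 10 genes were chosen by name, as the immediate early members of both families: Fos, Fosb, Fosl2, Jun, Junb, Jund, Atf3, Egr1, Egr2 and Egr3. They are 10 of the 20014 named genes on the array. Each had a probe, 9 passed the filter on background and were tested among 14535 genes, and Egr3 did not pass it.

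Expression was measured on 7 one-colour microarrays, 3 labelled Gata2 knockout and 4 labelled control. The first group, whose source is given as G2KD DC with no explanation of the abbreviation, came from Gata2(f/f)/ER-Cre mice, which carry a floxed Gata2 gene and a Cre recombinase switched on by tamoxifen, and the second from Gata2(f/f) mice without the Cre. Both were C57BL/6, and both received tamoxifen between day 1 and day 10 and gave their progenitors on days 20 to 22, so the floxed allele and the drug are common to the groups. Common myeloid progenitors (CD45.2+), the marrow precursors of granulocytes, monocytes, red cells and platelets, were cultured with FLT3-L at 200 ng/ml on bone marrow feeder cells of SJL mice (CD45.1+). The sources used here do not give the animals' age, the promoter that drives the Cre, the way dendritic cells were parted from feeder cells, or say whether replicates came from separate animals. The p-values therefore reflect the variation among arrays alone, which may be technical. The arrays labelled knockout lay in one row of a single slide and the control arrays in another, so row, Cre and group cannot be told apart.

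As background, AP-1 is a dimer of basic leucine zipper proteins in which a Fos protein pairs with a Jun protein, and Jun proteins also pair with each other and with ATF and BATF proteins. EGR proteins bind DNA through zinc fingers. Both kinds of gene are transcribed from factors already in the cell, among them serum response factor and CREB, once growth factors, microbial products or stress activate MAP kinases, and their messages are short-lived. In myeloid cells Egr1 and Egr2 are known for roles in the macrophage programme, and Jun proteins with BATF3 act in dendritic cells.

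Levels are given as log2 of the processed signal relative to each array's 75th percentile, so that 1 unit is a doubling. Among the arrays labelled knockout the 75th percentile lay between 3326 and 3825 intensity units, and among the controls between 2671 and 3303. Gata2 read 2.93, 3.00 and 3.06 on the arrays labelled knockout, against -0.25, 0.24, 0.36 and 0.34 on the control arrays, which is 7.08-fold brighter (limma adjusted p = 0.00015). No source states whether the probe matches the deleted exons. The probe therefore does not settle the labels, and each direction below is that of the arrays as labelled. Of 15 dendritic cell markers, 14 were well above background on all arrays of each group, with summed signals of 342 to 400 times the 75th percentile in the arrays labelled knockout and 385 to 443 times in the controls.

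None of the 9 tested factors passed the threshold of 0.05 in either direction (limma, Benjamini-Hochberg over all tested genes), where 2.9% of all tested genes did, 1.39% being lower and 1.51% higher. At an unadjusted limma p under 0.05, 2 of the 9 passed, Fos and Egr1, both lower, where 13.5% of all tested genes passed and 7.32% were lower. These 2 genes also had groups that did not overlap, as did 13.8% of all tested genes, 8.04% in the lower direction. The difference was below 0 for 7 of 9 factors and above 0 for Jun and Jund, and for all tested genes it was below 0 in 57.9%. The median difference was -0.64 over the 9 factors and -0.38 over the 7 without Fos and Egr1, while that of all tested genes was -0.04. The spread of the factors within groups is described further on.

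**Figure D1:**
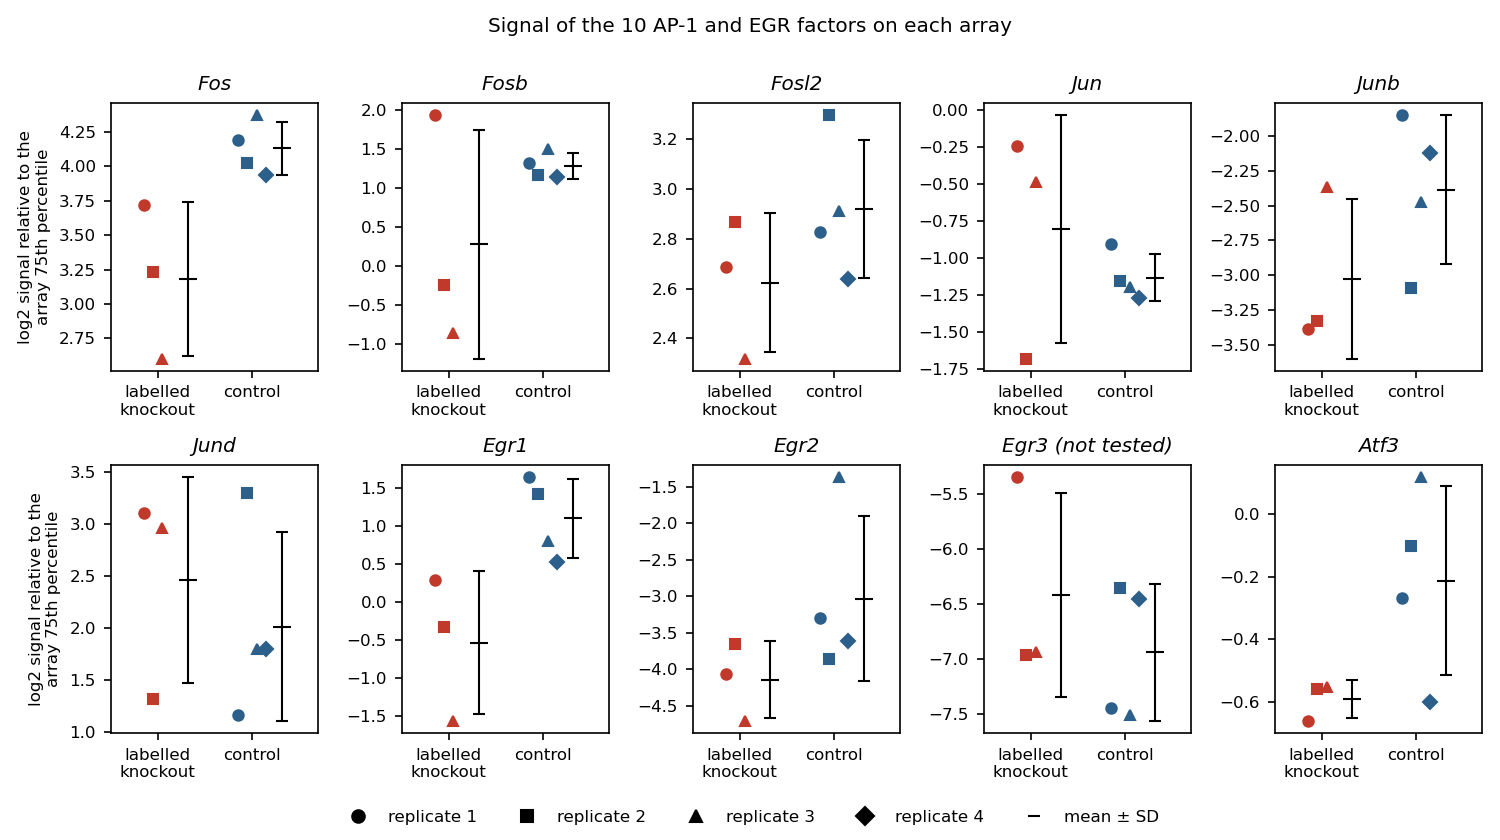
Log2 signal relative to the array's 75th percentile for each of the 10 factors, with arrays labelled knockout in red on the left and control arrays in blue on the right of each panel, marker shape giving the replicate and bars the mean ± SD. Fos and Egr1 separate the groups, while Fosb, Jun and Jund are spread widely over the arrays labelled knockout.

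Fos, the founding member of the Fos family, read 3.72, 3.23 and 2.60 on the arrays labelled knockout, against 4.19, 4.03, 4.37 and 3.94 on the control arrays. All 3 arrays labelled knockout lay below all 4 controls, and replicate 3 was the lowest. The group means were 3.18 ± 0.56 (SD, n = 3) and 4.13 ± 0.19 (SD, n = 4). The log2 difference was -0.95 (SE 0.25), a signal 1.93-fold lower, which did not pass (limma adjusted p = 0.121, unadjusted p = 0.0057). The Fos probe is printed in 10 spots on each array, and the SD over those spots was between 0.052 and 0.095, which covers error within an array alone. Fewer cells of a type and less message per cell cannot be told apart in such bulk RNA, for Fos or for any factor below.

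Fosb, a Fos paralogue, split the arrays labelled knockout. It read 1.94 on replicate 1 and -0.23 and -0.85 on replicates 2 and 3, against 1.32, 1.18, 1.51 and 1.14 on the control arrays. Replicate 1 was thus above every control and the other two below every control. The log2 difference was -1.002 (SE 0.57) and did not pass (limma adjusted p = 0.509). Without replicate 1 labelled knockout it was -1.83 (SE 0.21, adjusted p = 0.00657), and Fosb was then called, as was Fos at -1.21 (SE 0.22, adjusted p = 0.0474), where 0.969% of all genes were lower and 0.762% higher in that fit.

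The same replicate read higher than the other arrays labelled knockout in neutrophil genes, but reached the control range in only some of them. S100a9, a calprotectin subunit named after its values were seen, read 1.95 on replicate 1 labelled knockout and -0.64 and -1.18 on replicates 2 and 3, against 1.67, 2.51, 1.95 and 1.80 on the control arrays. On replicate 1, S100a8, Camp and Retnlg also lay within the control range, while Mpo, Elane, Prtn3, Cebpe, Ltf and Ngp lay below every control. Of the list, 3 genes were called lower over all arrays: Elane (-0.86), Prtn3 (-0.96) and Cebpe (-3.09). The summed signal of the 10 neutrophil markers was 56.3 times the 75th percentile on replicate 1 and 39.3 and 43.1 times on replicates 2 and 3, against 71 to 76.4 times on the controls. In each group 9 of the 10 were well above background on all arrays, all but Ngp on those labelled knockout and all but Retnlg on the controls. The part of these markers in the Fosb values was not tested.

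Fosl2, a Fos relative that lacks the strong activation domain of Fos, read 2.69, 2.87 and 2.32 on the arrays labelled knockout, against 2.83, 3.30, 2.91 and 2.64 on the control arrays. The groups overlapped, and the log2 difference of -0.30 (SE 0.20) did not pass (limma adjusted p = 0.589). A dimmer probe for the same transcript cleared background on each of the 3 arrays labelled knockout but on no control. Its readings overlapped, at -5.56, -6.23 and -6.25 on the arrays labelled knockout, against -6.01, -6.01, -5.90 and -6.14 on the controls. The background limit itself differed between the groups. The dimmest probe to clear it read -7.214 to -7.127 on the arrays labelled knockout and -6.065 to -5.488 on the controls. The dimmer Fosl2 probe is therefore given no fold.

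The Jun family showed no common direction. Jun, the main partner of Fos, read -0.24, -1.68 and -0.49 on the arrays labelled knockout, against -0.90, -1.16, -1.20 and -1.27 on the control arrays. Replicates 1 and 3 were above every control and replicate 2 below every control. The log2 difference was 0.33 (SE 0.32, limma adjusted p = 0.724), and leaving out 1 array at a time moved it between 0.05 and 0.77 without a call.

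Junb, which can oppose Jun on some targets, read -3.39, -3.33 and -2.37 on the arrays labelled knockout, against -1.85, -3.09, -2.48 and -2.12 on the control arrays. The groups overlapped through replicate 3 labelled knockout and control replicate 2. The log2 difference was -0.64 (SE 0.35, limma adjusted p = 0.483).

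Jund, the Jun protein that resting cells commonly carry, read 3.098, 1.32 and 2.96 on the arrays labelled knockout, against 1.16, 3.29, 1.80 and 1.80 on the control arrays. High and low values occurred in both groups: replicates 1 and 3 labelled knockout and control replicate 2 were near 3, and the other 4 arrays lay below 2. The log2 difference of 0.45 (SE 0.57) did not pass (limma adjusted p = 0.799), and leaving out 1 array at a time moved it between 0.13 and 1.02 without a call.

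Atf3, a stress-induced partner of Jun proteins that often acts as a repressor, read -0.66, -0.56 and -0.55 on the arrays labelled knockout, against -0.27, -0.10, 0.12 and -0.60 on the control arrays. It was tight in the arrays labelled knockout, and control replicate 4 alone overlapped them. The log2 difference was -0.38 (SE 0.18, limma adjusted p = 0.416).

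Egr1, an early zinc finger factor of growth and monocyte stimulation, had the largest difference of the 9 factors. It read 0.28, -0.34 and -1.57 on the arrays labelled knockout, against 1.64, 1.43, 0.80 and 0.53 on the control arrays. The groups did not overlap, the nearest arrays being replicate 1 labelled knockout and control replicate 4. The means were -0.54 ± 0.94 (SD, n = 3) and 1.10 ± 0.52 (SD, n = 4), a signal 3.12-fold lower on the arrays labelled knockout. The log2 difference of -1.64 (SE 0.45) did not pass (limma adjusted p = 0.127, unadjusted p = 0.00604).

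Egr2, a paralogue that also restrains T cell activation, read -4.07, -3.66 and -4.71 on the arrays labelled knockout, against -3.30, -3.86, -1.37 and -3.62 on the control arrays. Control replicate 3 was far above the other arrays, and the remaining controls overlapped the arrays labelled knockout. The log2 difference was -1.11 (SE 0.57, limma adjusted p = 0.458), and -0.56 without that control array. Egr3, the third EGR gene, read -5.35, -6.96 and -6.94 on the arrays labelled knockout, against -7.45, -6.36, -7.50 and -6.45 on the control arrays. Its probe was well above background on replicate 1 labelled knockout alone, so Egr3 was not tested and is given no fold.

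**Figure D2:**
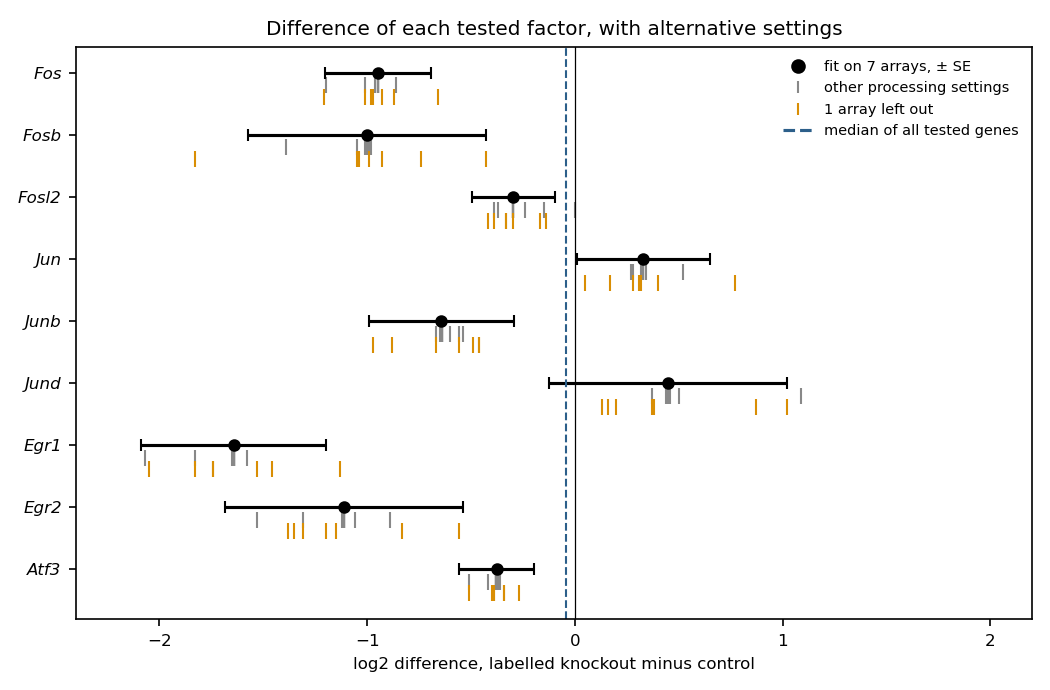
Log2 difference, labelled knockout minus control, of the 9 tested factors (points, ± SE), with grey ticks for other processing settings, orange ticks for fits with 1 array left out and a dashed line at the median of all tested genes, -0.04. Egr1 ranges from -2.07 to -1.13 and Fos from -1.21 to -0.66, while Fosb ranges from -1.83 to -0.43.

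The calls on Fos and Egr1 turned on how much each array counted. With limma array weights, which give arrays that stray from their group less say, both passed: Fos at -1.20 (SE 0.26, adjusted p = 0.0374) and Egr1 at -2.07 (SE 0.47, adjusted p = 0.0446), beside 2.58% of all tested genes lower in that fit. Over all 19 alternatives the direction of each was kept, with adjusted p between 0.0374 and 0.317 for Fos and between 0.0425 and 0.305 for Egr1.

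The summed markers of some other blood cells differed between the groups without overlap. Monocyte and macrophage markers summed to 54.9 to 66.2 times the 75th percentile on the arrays labelled knockout, against 80.9 to 96.5 times on the controls, with 8 and 10 of 12 well above background on all arrays of these groups. Mast cell and basophil markers summed to 7.53 to 10.5 times on the arrays labelled knockout, against 18.2 to 29.8 times on the controls (6 and 8 of 8 well above background). Of these 8 genes, 6 were called lower, among them Prss34 (-6.94) and Cpa3 (-5.02). Kit (-0.20), the brightest of them on the arrays labelled knockout, and Tpsb2 (0.155) did not pass, so the sums understate the change of the others. T lymphocyte markers summed to 7.12 to 7.82 times on the arrays labelled knockout, against 4.07 to 4.27 times on the controls (8 and 7 of 11, Cd247 and Bcl11b on no array). Within that list Lck (1.62) and Trat1 (2.42) had the differences that passed, and Cd3e (-0.05), Cd3d (0.01) and Cd4 (0.04) did not. B lymphocyte sums overlapped, at 14.5 to 18.4 times on the arrays labelled knockout and 14.5 to 19.2 times on the controls, as did natural killer cell sums, at 26.4 to 29.8 and 23.3 to 36.1 times in these groups. Single natural killer cell genes did differ: 3 of 7 tested were called higher, Gzma (3.365), Nkg7 (2.24) and Eomes (1.18). None was called lower, though 4 of 7 had differences below 0, among them Klrd1 (-0.58) and Gzmb (-2.39). The part of these markers in the values of Fos, Egr1 or the other factors was not tested.

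The spread within groups was wide for most of these factors. The pooled within-group SD was above the median of all tested genes, 0.23, for 9 of 9 factors, and 5 of 9 were among the 10% of tested genes with the largest SD: Junb, Egr1, Fosb, Jund and Egr2. Egr2 and Jund each had a pooled SD of 0.94, exceeded by 2.43% and 2.44% of tested genes, and Fosb one of 0.94, exceeded by 2.47%. Atf3 and Fosl2 lay nearer the middle, exceeded by 48.6% and 37.2%. Wide spread was not particular to the factors: the neutrophil markers had a median SD of 1.07, against 0.55 for the factors.

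The spread was unequal between the groups for some factors. Fosb had an SD of 1.47 on the arrays labelled knockout and 0.17 on the controls, a ratio of 8.8 that 0.378% of all tested genes exceeded. Jun had SDs of 0.77 and 0.16 in these groups, a ratio of 4.82 that 1.96% exceeded, and Fos 0.56 and 0.19, a ratio of 2.92 that 7.24% exceeded. Atf3 and Egr2 went the other way, with SDs of 0.06 and 0.53 on the arrays labelled knockout and 0.30 and 1.13 on the controls. With 3 and 4 arrays these SDs are themselves imprecise, and no test of them was made.

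**Figure D3:**
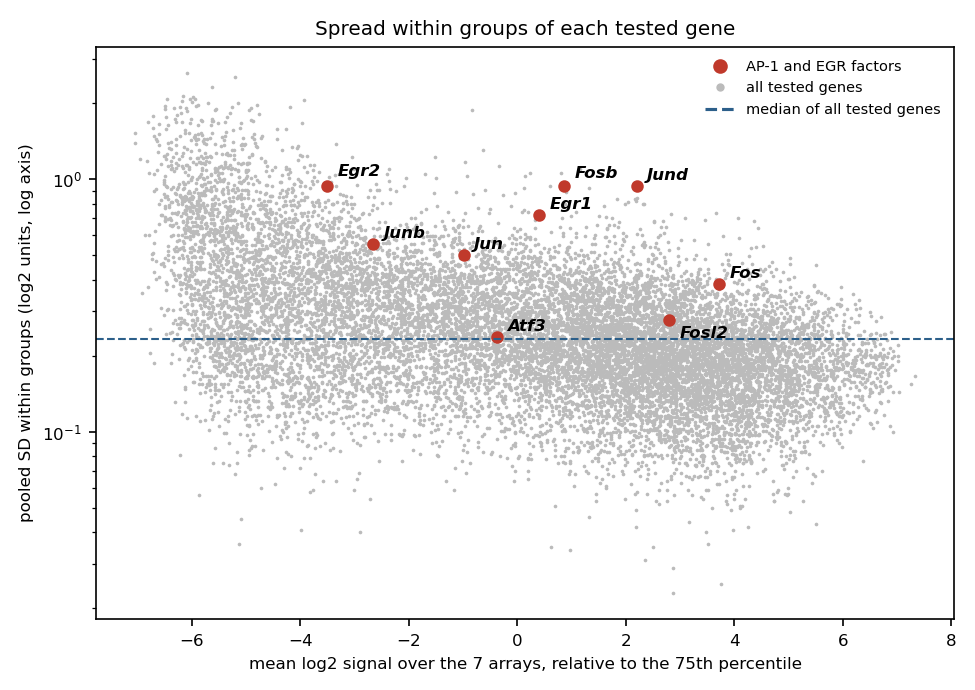
Pooled SD within groups (log2 units, log axis) against mean log2 signal for every tested gene (grey) with the 9 factors in red and the median SD of all tested genes, 0.23, as a dashed line. Fosb, Egr1 and Jund lie above most genes of like signal, and Atf3 lies at the median line.

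The arrays that were low or high were shared by only some of the factors. Among the arrays labelled knockout, replicate 3 was the lowest for 5 of 9 factors, Fos, Fosb, Fosl2, Egr1 and Egr2, where it was the lowest for 35.2% of all tested genes. Replicate 1 was the highest for 5 of 9, Fos, Fosb, Jun, Jund and Egr1, against 39.5% of all tested genes. Among the controls, replicate 4 was the lowest for 6 of 9, Fos, Fosb, Fosl2, Jun, Egr1 and Atf3, against 27.1% of all tested genes.

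Likeness between profiles was measured as the root mean square difference over the 7 arrays, each gene centred on its own mean, for the 7 factors whose values spanned over 1 log2 unit. Fos differed by 0.445 from Fosl2, 0.449 from Atf3, 0.52 from Fosb and 0.53 from Egr1. The size of the Fos profile itself was 0.57, so a flat profile would differ from it by that much. Fosb and Egr1, with profile sizes of 0.93 and 1.02, were only a little nearer to Fos than that. Fos and Jund differed by 1.13, more than either profile's own size of 0.57 and 0.82. Fos and its main partner Jun differed by 0.81.

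The nearest profiles were then sought among all 14535 tested genes. In a search that wide the nearest is hardly ever another factor, so the genes are listed as a description. The closest to Fos were Nupr1, a stress-induced chromatin protein (0.156), Cyp39a1, an oxysterol hydroxylase (0.157), and Havcr1, a phosphatidylserine receptor (0.164). The closest to Egr1 were the interferon-induced GTPase gene Gbp4 (0.356), the kinesin gene Kif5c (0.362) and the kallikrein gene Klk1b3 (0.387), whose family shares much sequence. The closest to Fosb were 2310001K24Rik (0.412), the chemokine gene Ccl2 (0.435) and Gm7609 (0.452). The difference to Ccl2 was a little under that to Fos.

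Jund was followed closely by Klc2, a kinesin light chain (0.136), Pcgf2, a Polycomb protein (0.146), and Zdhhc9, a palmitoyltransferase (0.174), and each showed the high values on replicates 1 and 3 labelled knockout and control replicate 2. Jun was closest to Trim56 (0.137), Zrsr2 (0.143) and Pigr (0.160), Junb to the platelet genes Gp6 (0.217) and Itga2b (0.259) with Tmem38b (0.248) between them, and Egr2 to Acp5 (0.329), Lrfn3 (0.333) and Tnr (0.349). These are the nearest of 14535 genes by choice, and the points of each profile share the same 7 libraries.

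**Figure D4:**
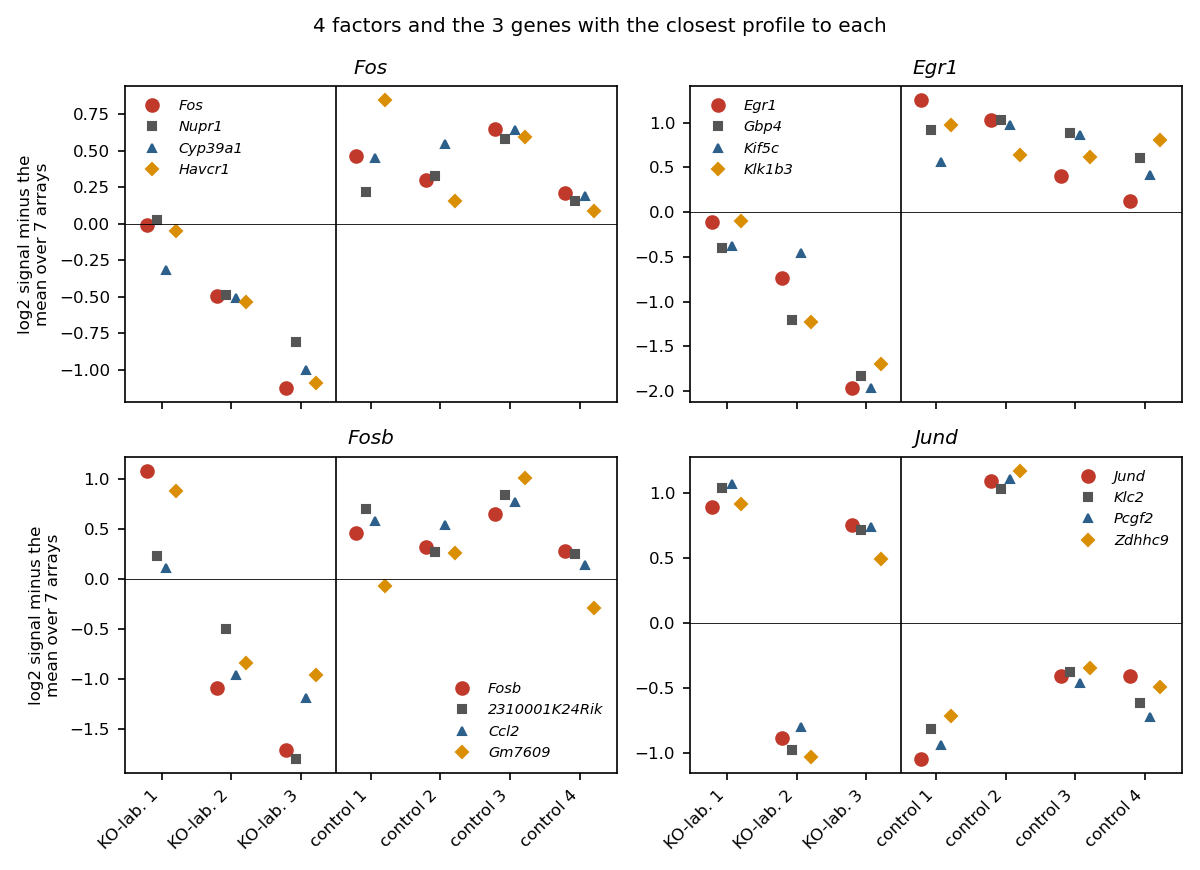
Log2 signal minus the mean over the 7 arrays for Fos, Egr1, Fosb and Jund (red circles) and the 3 genes closest to each (other markers), arrays labelled knockout left of the line and controls right of it. Jund and its neighbours are high on replicates 1 and 3 labelled knockout and control replicate 2, a pattern that Fos and Egr1 lack.

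Fos, Fosb, Fosl2, Egr1 and Egr2 were the factors lowest on replicate 3 among the arrays labelled knockout, and the bases before the start sites are shown for those with a window in the table, Fos, Fosb, Fosl2 and Egr2. Each window holds the 250 bases before the start, read 5′ to 3′ along the gene from RefSeq on GRCm38.p6, and capitals mark matches on either strand. The motifs searched were the CREB site TGACGTCA, its core TGACG (which every full site also holds), the AP-1 site (TGACTCA or TGAGTCA), the EGR site GCGNGGGCG, the CArG box bound by serum response factor, the GATA site (the letters GATA with A or T before and A or G after) and TATAAA. The Fos window is chr12:85473640-85473889 on the plus strand, that of Fosb chr7:19310046-19310295 on the minus strand and that of Fosl2 chr5:32136222-32136471 on the plus strand. That of Egr2, 1 of 5 listed and chosen because it holds a CArG box, is chr10:67537619-67537868 on the plus strand.
Fos: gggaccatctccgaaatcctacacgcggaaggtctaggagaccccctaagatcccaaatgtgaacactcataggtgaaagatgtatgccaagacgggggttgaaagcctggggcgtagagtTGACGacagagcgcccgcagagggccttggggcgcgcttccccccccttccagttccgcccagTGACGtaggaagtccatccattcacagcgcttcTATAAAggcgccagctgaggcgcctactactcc
Fosb: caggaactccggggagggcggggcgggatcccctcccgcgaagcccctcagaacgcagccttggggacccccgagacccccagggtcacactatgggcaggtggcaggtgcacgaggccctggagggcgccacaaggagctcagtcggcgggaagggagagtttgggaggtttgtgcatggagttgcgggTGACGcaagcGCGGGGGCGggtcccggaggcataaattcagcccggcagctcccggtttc
Fosl2: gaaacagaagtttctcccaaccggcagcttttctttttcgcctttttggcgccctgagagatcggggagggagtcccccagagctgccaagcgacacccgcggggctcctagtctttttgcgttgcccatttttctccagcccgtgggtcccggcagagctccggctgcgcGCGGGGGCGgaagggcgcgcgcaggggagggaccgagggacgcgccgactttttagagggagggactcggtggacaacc
Egr2: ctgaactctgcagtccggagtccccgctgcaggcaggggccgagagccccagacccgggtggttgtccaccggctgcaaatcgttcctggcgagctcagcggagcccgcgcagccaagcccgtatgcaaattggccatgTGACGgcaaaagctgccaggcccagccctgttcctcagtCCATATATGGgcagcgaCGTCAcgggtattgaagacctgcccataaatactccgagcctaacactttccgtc

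Windows were matched for 8 of the 10 factors, all but Egr1 and Egr3. A gene with several windows, such as Egr2 with 5, counts as holding a motif if any window does, for the factors and for the shares of all 27025 genes in the table alike. No factor of the 8 held the full CREB site (1.77% of all genes). Its core TGACG was found before 5 of the 8, Fos, Fosb, Junb, Egr2 and Atf3, where 19.8% of all genes hold it. In Fos it lies at -129 to -125 and at -66 to -62, with TATAAA at -33 to -28. The EGR site was found before Fosb and Fosl2 (5.33% of all genes) and the CArG box before Egr2 (1.62%), while that of Fos is known to lie further upstream than this window. A GATA site was found before Jun and Atf3, 2 of 8, where 29.7% of all genes hold one. No factor of the 8 held the AP-1 site (5.16% of all genes). These matches are letters in a window and were not measured as binding.

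The rest of the early response was mixed in direction. Of 32 tested genes in a list of other immediate early genes, 2 were called lower and 1 higher, with a median difference of -0.15, where 1.39% of all tested genes were lower and 1.51% higher. At an unadjusted limma p under 0.05, 12 of the 32 passed, where 13.5% of all tested genes did and 7.32% were lower. Those lower were Sgk1, Klf2, Klf4, Klf6, Nr4a1, Dusp1, Zfp36 and Rhob, and those higher were Plk2, Dusp2, Ccn1 and Trib1. Sgk1, a kinase induced by serum and glucocorticoids, read 0.57, 0.70 and 0.41 on the arrays labelled knockout, against 1.39, 2.23, 1.62 and 1.62 on the control arrays. It fell 2.23-fold (log2 difference -1.16, SE 0.21, limma adjusted p = 0.0235), and Klf2, a zinc finger factor of quiescence, fell 1.77-fold (log2 difference -0.83, SE 0.16, adjusted p = 0.0376). Plk2, a polo-like kinase and p53 target, read -2.55, -1.98 and -2.39 on the arrays labelled knockout, against -5.75, -4.24, -3.48 and -5.19 on the control arrays. Its log2 difference was 2.36 (SE 0.49, adjusted p = 0.0475), but only 2 of 4 controls had the probe well above background. The control level is therefore partly that of the background, and Plk2 is given no fold. With the filter that asked for a probe well above background on all arrays, Plk2 was not tested. With normexp background correction its log2 difference was 1.61 (adjusted p = 0.0162), so the size depends on how background is treated.

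Each of these 3 calls was lost when single arrays were left out. The call of Plk2 was kept only without control replicate 3 (adjusted p up to 0.152 without the others). Sgk1 lost its call on removing control replicate 3 or 4, or any array labelled knockout (adjusted p up to 0.115). Klf2 lost it on removing control replicate 1, 2 or 3, or replicate 2 or 3 labelled knockout (adjusted p up to 0.159).

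**Figure D5:**
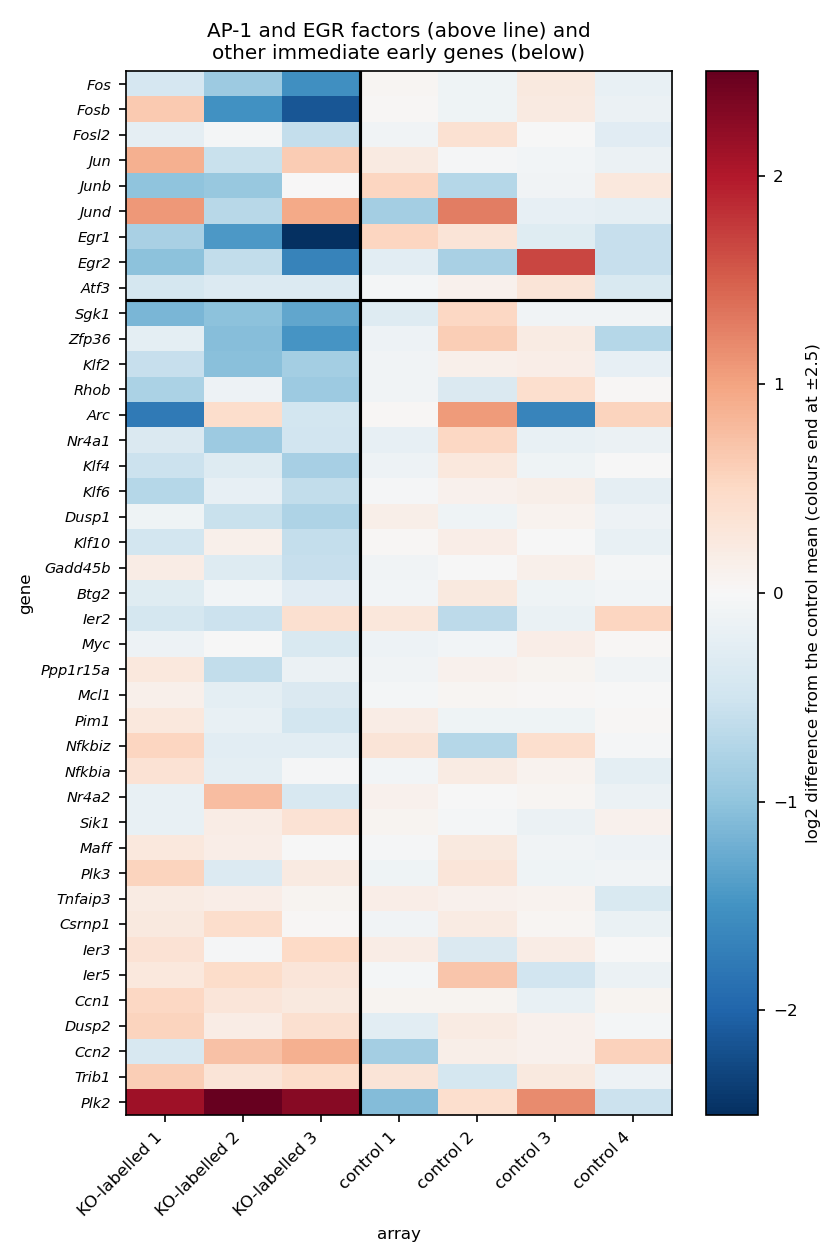
Log2 difference of each array from the control mean for the 9 tested factors (above the line) and 32 other immediate early genes ordered by their group difference (below), arrays labelled knockout left of the vertical line, with colours that end at ±2.5. Fos and Egr1 are lower on all 3 arrays labelled knockout, Jund is high in arrays of both groups, and Plk2 is the gene most raised. The Plk2 probe was well above background on only 2 of 4 controls.

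Of the partners and controllers of AP-1 and EGR, few were called. None of 5 other AP-1 zipper genes passed (median 0.00). Fosl1, a further Fos relative, had a probe that cleared background on 3 of 3 arrays labelled knockout but 0 of 4 controls, so it is given no fold. The background limit lay higher on the controls, as given for Fosl2. Batf2 had a difference of -0.89 (adjusted p = 0.502). Batf3, a dendritic cell partner of Jun proteins named for that role, had a difference of 0.08 (adjusted p = 0.90). None of 11 ATF and CREB genes passed (median -0.16), where Atf5 had 0.46 (adjusted p = 0.541) and Atf6b -0.39 (adjusted p = 0.467).

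Upstream of the factors, none of 22 MAP kinase, serum response factor and cofactor genes passed (median -0.09). Elk3, an ETS cofactor of serum response factor, had a difference of 0.47 (limma adjusted p = 0.0907) and Elk4 one of 0.39 (adjusted p = 0.787). Of 12 feedback inhibitors 1 was called: Spred2, an inhibitor of the path from Ras to MAP kinase, was higher (log2 difference 1.45, SE 0.26, adjusted p = 0.0241). Its probe cleared background on only 2 of 4 controls, so Spred2 is given no fold. With the filter that asked for a probe well above background on all arrays, it was not tested. Removing replicate 1 or 3 of the arrays labelled knockout, or control replicate 3 or 4, ended the call (adjusted p up to 0.0912). With normexp background correction its log2 difference was 0.86 (adjusted p = 0.0254). Nab2, the corepressor that EGR proteins induce and bind, had a difference of -0.29 (adjusted p = 0.66). Batf3 and Nab2 were named after their values were seen.

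Heat shock genes, another set of fast stress responders, did not separate the groups. None of 10 passed (limma; 0 also at an unadjusted p under 0.05), with a median of -0.07. Hspa1a had a difference of 0.32 and Hsp90ab1 one of -0.23.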

How the data were processed

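The authors deposited 1 scanner file per array, per the file headers with the intensity of every spot, background-subtracted by Feature Extraction 10.7.3.1. Per the labels' protocols, the target was amplified RNA carrying Cy3. The deposited series table holds log2 values centred on each probe's median. This was found by comparing differences between arrays with the scanner values (r = 1.000000, same direction) because the table itself states none of scale, centring and direction. Its column medians were 0 except replicate 3 labelled knockout at -0.02.

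Here each processed signal was divided by its array's 75th percentile and taken to log2, without outlier spots and as the mean over a probe's spots. Of 55680 probes, 26406 were named through their RefSeq accession (assembly GRCm38.p6). Named probes that 3 or more of the 7 arrays showed well above background were tested, each gene by its brightest such probe, by linear models with moderated variance (limma 3.58.1, R 4.3.3) without a replicate block. The fitting script was tested on simulated data. No factor lacked a value on any array. Since the scanner files as used here have no mean signal column, normexp used the median signal. The number of arrays limits the precision. Values of 1 marker list are not reported here.

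The members, gene lists, tests and alternatives were chosen with earlier results of these data known. The rule names all 10 factors, up to 4 called genes per direction of each list or the 2 with the largest change, and the 3 closest profiles.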

Additional observations from a re-analysis of the deposited data

How the results depend on the processing

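Of 19 alternatives, none called a factor higher, and 3 called a factor lower: array weights 2 (Fos and Egr1), the replicate block 1 (Egr1, -1.83, adjusted p = 0.0425) and the fit without replicate 1 labelled knockout 2 (Fos and Fosb). Control replicate 4 has no same-numbered array labelled knockout, so it adds nothing to the group difference under the block. The block differences therefore equal those of the fit without that array, where Egr1 was also at -1.83 but was not called (limma adjusted p = 0.128). With 1 array left out the count of factors called lower ranged from 0 to 2 and of factors called higher from 0 to 0. The direction of 8 of 9 factors was kept in all alternatives. Fosl2 was at 0.00 with the probe of largest interquartile range, since its dim probe was then taken, which cleared background on 0 of 4 controls and so gives no direction.

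Over all tested genes, 219 were higher and 202 lower on the arrays labelled knockout. These counts were 365 and 2483 without a filter on background, where the median of all genes shifted to -0.106, 382 and 375 with array weights and 87 and 93 with the replicate block. With 1 array left out they ranged from 88 to 227 and from 105 to 179. They moved by over 1.5 times without replicate 1 labelled knockout (0.762% of genes higher), replicate 2 (145 higher) or replicate 3 (88 higher, 105 lower), and without control replicate 3 (133 lower). Negative control spots read -8.996 to -8.24 on the arrays labelled knockout and -7.629 to -7.279 on the controls, and the fit without a filter includes probes at that level. The cause of these shifts in the counts was not tested.

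Replicate numbers recur in both groups, and the labels do not say that equal numbers pair the arrays. Deviations of same-numbered arrays had correlations of -0.097, -0.17 and -0.049 across genes, and those of other pairs ran from -0.195 to 0.23. With so few arrays these values cannot settle whether same-numbered arrays shared a preparation. The replicate block moved the calls as given above. With it the calls of Sgk1, Klf2, Plk2 and Spred2 were lost (adjusted p from 0.0906 to 0.183). Quantile normalization (adjusted p = 0.0573), the common floor (0.0804) and the most variable probe (0.055) each ended the call of Plk2 too.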
